A study of Mus musculus with 2 samples.

Results

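The Myc, Max and Mxd network is a family of basic helix-loop-helix leucine zipper proteins that decides whether genes of cell growth are switched on or off. Its 10 genes were Myc, Mycn, Max, Mxd1, Mxd3, Mxd4, Mxi1, Mnt, Mga and Mlx. They were taken by name as every probe set whose platform annotation gives exactly 1 of these symbols. This gave 26 of the 45037 probe sets and 10 of the 18193 genes measured. No probe set was found under a former name only, and 0 probe sets listed a member together with another gene.

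The samples were 1 array labelled Satb1 and 1 array labelled GFP, the control transduction. Both carried RNA of wild-type C57BL6J mouse marrow cells described as LSK Flt3-, a fraction without lineage markers or Flt3 and with Sca-1 and high c-Kit that is rich in blood stem cells. SATB1 is a chromatin organiser that attaches to AT-rich sequence, and GFP is a fluorescent marker protein. The arrays are called Satb1 and GFP by these labels. With 1 array per group, no difference below has a replicate, an error or a p-value, and the sources used here do not say how many mice or cultures stood behind an array.

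MYC and MYCN proteins pair with MAX, bind the E-box CACGTG and raise transcription of genes for ribosomes, nucleotide synthesis and the cell cycle. MXD1, MXI1, MXD3, MXD4 and MNT compete for MAX and bring the SIN3 corepressor with its histone deacetylases to the same sites, while MGA pairs with MAX in a variant Polycomb complex. MLX is a MAX-like partner of the Mondo glucose sensors and of some MXD proteins. In mouse blood stem cells Myc and Mycn are known to share functions in survival and proliferation, and Mxd1 is known to rise as granulocyte precursors leave the cell cycle.

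Values are MAS5 intensities, the linear brightness that the Affymetrix algorithm gives a probe set. Intensities under 61.7, the median of all values, were set to that floor before a log2 difference was taken, Satb1 minus GFP. A gene was represented by its brightest probe set and counted as apart at 2-fold or more. As a technical yardstick, probe sets of 1 gene scattered around their shared log2 difference with an SD of 0.36 at mean intensities under 200, 0.28 from 200 to 500, 0.19 from 500 to 2000 and 0.13 above 2000. This yardstick does not hold the error of a preparation, which all probe sets of an array share. An intensity depends on the probes as well as on the RNA, so levels of different probe sets are given side by side and are not ranked.

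Over all genes above the floor, 11048 in number, the median log2 difference was -0.02. Satb1 itself read 909 on the array labelled Satb1 and 1116 on the array labelled GFP by its brightest probe set, and all 4 of its 5 probe sets that reached the floor were lower on the array labelled Satb1. The furthest of them above the floor on both arrays read 165 in Satb1 against 288 in GFP, a log2 difference of -0.81. The Satb1 label is thus not borne out by this gene, and the sources used here do not say whether the transduced sequence covers these probe sets. The stem cell fraction markers Kit (3388 in Satb1 against 3293 in GFP) and Cd34 (8197 in Satb1 against 8563 in GFP) were bright, and so was Flt3 (1334 in Satb1 against 1390 in GFP), although the cells were described as lacking it. The Sca-1 gene was not analysed here, and 5 of 8 measured lymphocyte markers were below the floor on both arrays, among them Cd3e, Cd4 and Ms4a1. The other 3 were above it, 2 lower and 1 higher. Lower were Cd79b (352 in Satb1 against 412 in GFP) and Il7r (156 in Satb1 against 187 in GFP). Cd8a was higher, at 147.5 in Satb1 against 88.9 in GFP. Of 9 measured granulocyte and monocyte markers, 5 were higher and 0 lower by 2-fold, against 0.272% and 0.86% of all genes above the floor. By any amount, 7 were higher and 2 lower, against 45.2% and 54.8% of all genes. The 2 lower ones were Csf1r and Itgam. Csf1r read 3548.5 in Satb1 against 4099 in GFP, and Itgam 121 in Satb1 against 127 in GFP. The 9 markers summed to 22542 on the array labelled Satb1 against 10630 on the array labelled GFP. Of these sums, S100a8 gave 10109 in Satb1 and 3094 in GFP. Of 6 mast cell and basophil markers, 4 were lower and 1 higher by 2-fold, against 0.86% and 0.272% of all genes. The higher one was Prg2, at 825 in Satb1 against 194 in GFP. The 6 markers summed to 9120 in Satb1 against 17051 in GFP. All 5 measured megakaryocyte markers were higher by some amount, against 45.2% of all genes. Their sums were 29313 in Satb1 against 25737 in GFP, with Ppbp the furthest at 1.75-fold. Of 5 measured erythroid markers, 2 were above the floor and both higher, Klf1 by 1.59-fold, while Hba-a1, Alas2 and Slc4a1 were below it on both arrays. These shifts stand beside every member's difference below, and their part in it was not tested. Fewer cells of a type and less RNA per cell cannot be told apart in such bulk RNA.

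The members whose own promoters carry the network's binding letters are shown here, since the E-box connects the proteins to their genes. A promoter window, from RefSeq on build GRCm38.p6, holds 250 bases before and 50 after a gene's start. At least 1 such window was available for 9 of the 10 members, all but Myc. The letters CACGTG, which read the same on both strands, stood in the window of 4 of these 9 members, Max, Mlx, Mnt and Mxd4. They were in 7.15% of all 32851 windows and in at least 1 window of 12.0% of the 9024 genes above the floor that had one. The windows lie at chr12:76962199-76962498 on the minus strand for Max, chr11:101087040-101087339 on the plus strand for Mlx, chr11:74830674-74830973 on the plus strand for Mnt and chr5:34187661-34187960 on the minus strand for Mxd4. Each is printed 5′ to 3′ in the gene's direction, with CACGTG in capitals.
Max: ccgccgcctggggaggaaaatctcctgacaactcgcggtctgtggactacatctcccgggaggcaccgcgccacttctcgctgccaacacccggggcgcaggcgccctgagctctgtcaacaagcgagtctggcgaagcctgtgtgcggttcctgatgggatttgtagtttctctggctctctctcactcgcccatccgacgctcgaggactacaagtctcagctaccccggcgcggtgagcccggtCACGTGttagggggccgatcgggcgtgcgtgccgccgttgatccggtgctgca
Mlx: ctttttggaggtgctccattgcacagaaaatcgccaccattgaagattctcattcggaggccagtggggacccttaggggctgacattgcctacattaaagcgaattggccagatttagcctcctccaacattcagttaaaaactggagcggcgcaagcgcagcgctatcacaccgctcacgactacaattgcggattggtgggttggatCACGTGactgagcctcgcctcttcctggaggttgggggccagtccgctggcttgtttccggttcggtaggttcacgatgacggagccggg
Mnt: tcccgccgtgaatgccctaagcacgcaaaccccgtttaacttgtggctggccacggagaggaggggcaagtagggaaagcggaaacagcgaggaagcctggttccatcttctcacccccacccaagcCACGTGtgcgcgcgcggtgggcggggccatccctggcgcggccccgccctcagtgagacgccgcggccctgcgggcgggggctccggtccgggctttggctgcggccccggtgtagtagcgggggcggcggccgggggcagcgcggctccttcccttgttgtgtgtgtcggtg
Mxd4: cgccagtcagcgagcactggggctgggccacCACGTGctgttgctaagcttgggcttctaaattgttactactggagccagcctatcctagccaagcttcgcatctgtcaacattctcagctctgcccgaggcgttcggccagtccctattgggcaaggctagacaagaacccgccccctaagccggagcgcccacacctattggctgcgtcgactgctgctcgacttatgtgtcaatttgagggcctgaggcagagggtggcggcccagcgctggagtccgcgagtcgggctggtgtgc
The E-box began 3 bases before the start site in Max, 40 in Mlx, 123 in Mnt and 219 in Mxd4. It was not found in the windows of Mycn, Mxd1, Mxd3, Mxi1 and Mga. A match describes these letters only and does not show that a protein binds there.

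All 10 members were above the floor on both arrays by their brightest probe set, and 23 of their 26 probe sets were. The count of members apart by 2-fold was 0, where 1.13% of all genes above the floor were apart, 0.272% higher and 0.86% lower. At 1.5-fold, 1 member was apart, Mycn, against 5.66% of all genes, 1.75% higher and 3.91% lower. At 3-fold, 0.172% of all genes and 0 members were apart. By any amount, 6 members were higher and 4 lower on the array labelled Satb1, against 45.2% and 54.8% of all genes. The 6 include Mnt, which was level with a log2 difference of 0.00. The members' median log2 difference was 0.06. The brightest probe sets of 7 members differed by more than the yardstick SD of their intensity, against 33.4% of all genes above the floor, and those of Mycn, Mxd4 and Myc by more than 2 such SDs, against 8.51%.

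**Figure D1:**
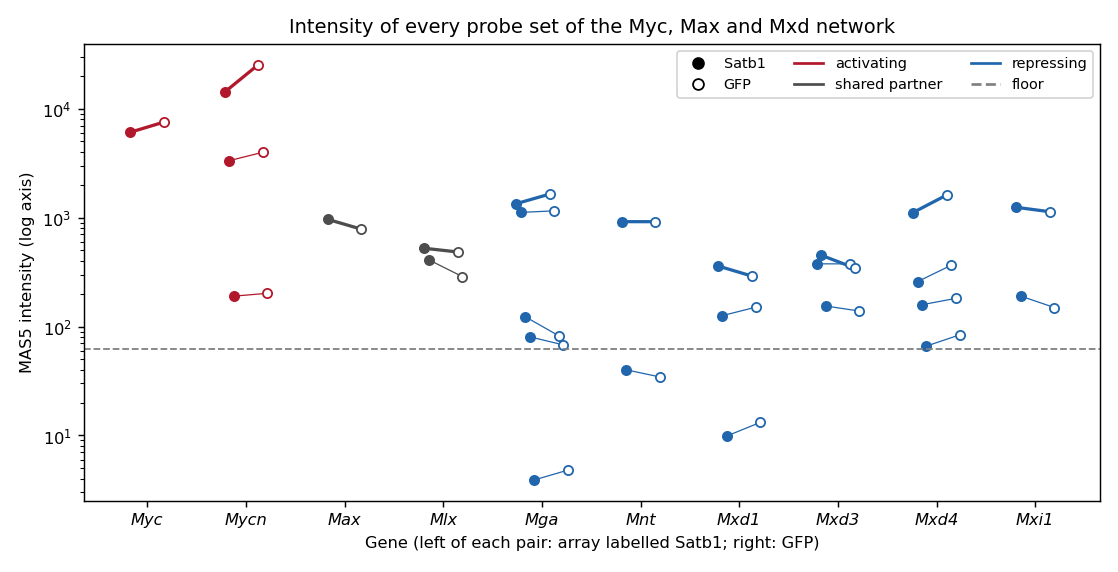
MAS5 intensity (log axis) of all 26 probe sets of the 10 members, with the array labelled Satb1 on the left of each pair (filled) and the array labelled GFP on the right (open). Thick lines mark the brightest probe set of a gene and the dashed line the floor of 61.7. All 4 lines of Myc and Mycn slope up to the GFP array, as do the 4 of Mxd4, and 3 probe sets of Mga, Mnt and Mxd1 lie below the floor.

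The activating members were both lower on the array labelled Satb1, as were 54.8% of all genes above the floor. Mycn, which encodes N-MYC, read 14179 on the array labelled Satb1 and 25285 on the array labelled GFP by its brightest probe set (1425923_at). The log2 difference was -0.83, or 1.78-fold lower, the largest of any member. Of 2570 genes with a mean intensity of at least 2000, 6 lay further below.

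The size of the Mycn difference depended on the probe set. A second one (1417155_at) read 3327 in Satb1 against 3973 in GFP, a log2 difference of -0.26, and a dim one (1425922_a_at) read 189.9 in Satb1 against 202 in GFP, a difference of -0.09. All 3 were lower on the array labelled Satb1. Their mean difference was -0.39, under 1.5-fold, so the call at 1.5-fold rests on the brightest probe set. The differences of the 2 bright probe sets were 0.58 apart, where the yardstick SD at their intensity was 0.13. Which ends or isoforms of the transcript they cover was not analysed here.

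Myc, the gene of c-MYC, had 1 probe set, which read 6079 on the array labelled Satb1 and 7526 on the array labelled GFP. The log2 difference was -0.31, or 1.24-fold lower. Of the 2570 bright genes, 95 (3.70%) lay further below. The remaining paralog, Mycl, is not one of the 10 genes and went the other way. It read 134 in Satb1 against 64.3 in GFP by its brightest probe set, 2.08-fold higher, but 64.3 is just above the floor and its 2 dimmer probe sets did not reach the floor on either array.

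**Figure D2:**
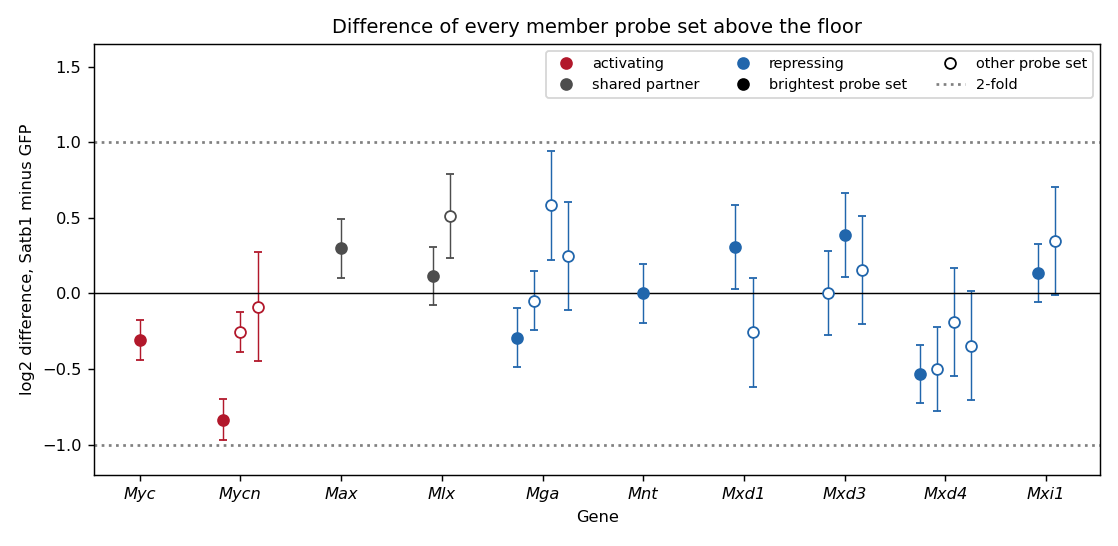
Log2 difference, Satb1 minus GFP, of each of the 23 member probe sets above the floor, coloured by role, with the brightest probe set of a gene filled. Bars show the yardstick SD between probe sets of the same gene at that intensity, which is not a replicate error, and dotted lines mark 2-fold. The probe sets of Myc, Mycn and Mxd4 lie below 0, those of Max, Mlx, Mxd3 and Mxi1 above it (1 of Mxd3 at 0.00), that of Mnt at 0.00, and those of Mga and Mxd1 on both sides.

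The shared partners were both higher, as were 45.2% of all genes above the floor. Max, whose protein MYC proteins need as a partner to bind DNA, read 963 on the array labelled Satb1 and 783 on the array labelled GFP. That was a log2 difference of 0.30, from its only probe set, and 4.93% of 4039 genes with a mean intensity from 500 to 2000 lay further above. Mlx read 523 in Satb1 against 483 in GFP by its brightest probe set and 410 in Satb1 against 288 in GFP by the other, with differences of 0.11 and 0.51. Both Mlx probe sets were thus higher, the dimmer one by more. Among the 4 members with an E-box in a window, these 2 had it closest to the start site, as printed above. Whether that position bears on their difference was not tested.

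The repressing members were divided. Among the 6 of them, 4 were higher by any amount and 2 lower, against 45.2% and 54.8% of all genes above the floor. Their median log2 difference was 0.07. The 4 include Mnt, which was level at 917.5 in Satb1 against 917.1 in GFP. Mxd1, counted as higher, and Mga, counted as lower, had probe sets in both directions. The spread was from -0.53 for Mxd4 to 0.39 for Mxd3.

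Mxd4, a member associated in mouse with resting and differentiating cells, was the repressor furthest from 0. By its brightest probe set (1434378_a_at) it read 1113 on the array labelled Satb1 and 1612 on the array labelled GFP, 1.45-fold lower. The other probe sets read 258 in Satb1 against 365 in GFP, 159 in Satb1 against 181 in GFP and 66.2 in Satb1 against 84.1 in GFP. All 4 were lower, with log2 differences of -0.53, -0.50, -0.19 and -0.35 from the brightest to the dimmest. No other member had as many probe sets above the floor that all went the same way. Among genes with a mean intensity from 500 to 2000, 1.63% lay further below than its brightest probe set.

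Mxd3, which in mouse is known for expression in S phase, was higher by its brightest probe set, at 451 on the array labelled Satb1 and 345 on the array labelled GFP (log2 difference 0.39). A second probe set of nearly equal brightness read 376.3 in Satb1 against 376.0 in GFP, and the third 154 in Satb1 against 139 in GFP. None of the 3 was lower, but the difference of 0.39 was not seen in the second. Mxi1, whose human counterpart was found as a MAX interactor, read 1242 in Satb1 against 1132 in GFP and 190.3 in Satb1 against 149.5 in GFP, with differences of 0.13 and 0.35. Both of its probe sets were higher.

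Mxd1, which takes over MAX as myeloid cells differentiate, read 360 on the array labelled Satb1 and 291 on the array labelled GFP by its brightest probe set, a log2 difference of 0.30. Another probe set went the other way, at 126 in Satb1 against 151 in GFP, a difference of -0.26. The third was below the floor, at 9.9 in Satb1 against 13.2 in GFP. The Mxd1 direction is therefore not settled by its probe sets. Of the 9 granulocyte and monocyte markers given above, 5 were higher by 2-fold, against 0.272% of all genes above the floor. By any amount 2 were lower, against 54.8% of all genes. These markers stand beside Mxd1, whose mean difference over its probe sets above the floor was 0.02.

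Mnt, a broadly expressed repressor that competes with MYC in dividing and resting cells alike, read 917.5 on the array labelled Satb1 and 917.1 on the array labelled GFP. The log2 difference of 0.00 was the smallest of any member, and a dimmer Mnt probe set did not reach the floor. Mga, the largest protein of the network and the member with a T-box as a second DNA-binding domain, had 5 probe sets. The brighter ones were lower, at 1342 in Satb1 against 1644 in GFP and 1115 in Satb1 against 1153 in GFP, with differences of -0.29 and -0.05. The dim ones were higher, at 123 in Satb1 against 82.3 in GFP and 80.5 in Satb1 against 67.9 in GFP, and the fifth was below the floor. The Mga direction thus turned from -0.29 with its brightest probe set to 0.12 with the mean over the 4 above the floor.

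**Figure D3:**
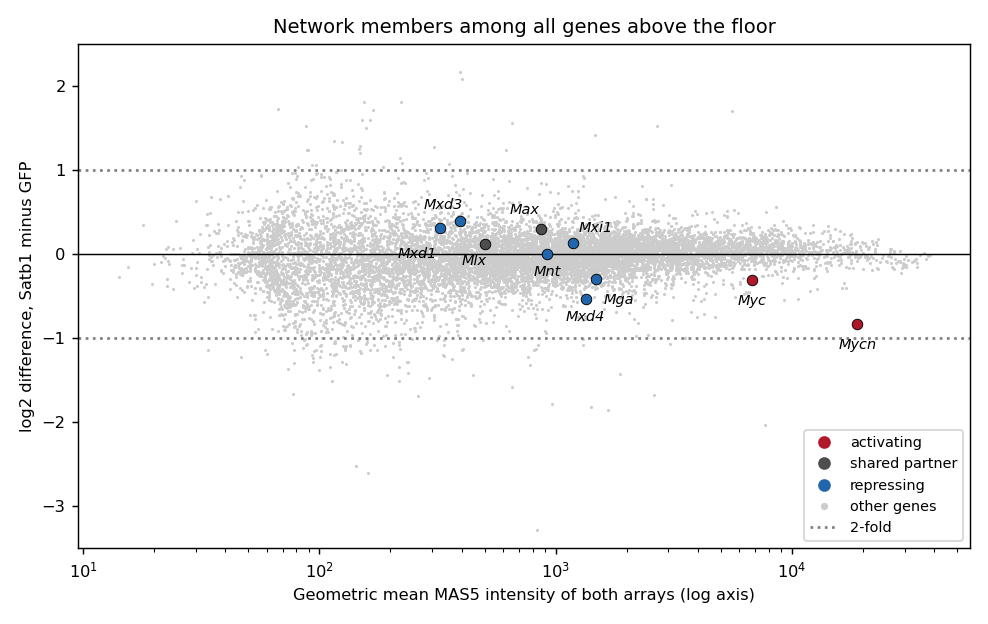
Log2 difference, Satb1 minus GFP, against the geometric mean MAS5 intensity of both arrays (log axis) for the brightest probe set of the 11048 genes above the floor, with the 10 members coloured by role. Mycn at -0.83 lies at the lower edge of the bright genes. Myc at -0.31 lies below most of them, with 95 of 2570 further below. No member lies beyond the dotted 2-fold lines.

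Set side by side by role, the activating members had a median log2 difference of -0.57 and the repressing members one of 0.07, 0.64 apart. This gap rests on 2 activating genes, and above all on the brightest Mycn probe set. With probe sets averaged within a gene it was 0.42. Counting Mycl as activating, a choice made after its value was seen, left 0.38. Over all probe sets above the floor, not 1 per gene, the roles lay closer together. The medians were then -0.28 for the 4 activating and 0.00 for the 16 repressing probe sets. The activating and repressing genes did not separate fully, since Mxd4 at -0.53 was lower than Myc at -0.31, and Mga at -0.29 was close to it.

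By level, the array labelled Satb1 gave 14179 for Mycn and 6079 for Myc, and the array labelled GFP gave 25285 and 7526. The brightest probe sets of the repressing members ran from 360 to 1342 on the array labelled Satb1 and from 291 to 1644 on the array labelled GFP. Those of Max and Mlx were 963 and 523 on the array labelled Satb1, against 783 and 483 on the array labelled GFP. All roles were thus present as RNA on both arrays, and since the probes differ, no amount of one transcript relative to another is read from these values.

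The other network genes and cofactors were then examined. Mlxip, the gene of the glucose sensor MondoA that pairs with MLX, read 780 on the array labelled Satb1 and 898 on the array labelled GFP. Mlxipl, the gene of the related ChREBP, was below the floor. The Mondo target Txnip, which encodes an inhibitor of glucose uptake, read 5352 in Satb1 against 5062 in GFP. Arrdc4, also a Mondo target, read 259 in Satb1 against 247 in GFP. The log2 differences of Txnip and Arrdc4 were 0.08 and 0.07. The other Txnip probe set went the other way by -0.08, and the other Arrdc4 probe set was higher by 0.34. Pklr, a glycolytic enzyme gene of the same list, was below the floor.

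Genes for cofactors that MYC brings to chromatin were all within 2-fold, 13 in number, where 1.13% of all genes were apart. By any amount, 5 were higher and 8 lower, against 45.2% and 54.8% of all genes, with a median log2 difference of -0.03. Trrap, the scaffold of MYC-bound histone acetyltransferases, read 1370.5 on the array labelled Satb1 against 1746 on the array labelled GFP, a difference of -0.35. Ep400, a remodelling ATPase of the same assemblies, read 1970 in Satb1 against 2324 in GFP, but its other probe sets above the floor ranged from -0.63 to 0.64. Cdk9, the kinase that releases paused polymerase, read 6640 in Satb1 against 5754 in GFP, and Actl6a, an actin-related subunit of remodellers, 4244 in Satb1 against 4022 in GFP. The probe sets of Ep400 (name ending _s_at) and Actl6a (_x_at) may also match other transcripts.

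The 14 measured genes for turnover and stability of MYC proteins were also all within 2-fold, where 1.13% of all genes were apart. By any amount, 6 were higher and 8 lower, against 45.2% and 54.8% of all genes, with a median of -0.02. Aurka, the mitotic kinase known to shield N-MYC from degradation, read 2221 on the array labelled Satb1 against 1862 on the array labelled GFP, a log2 difference of 0.25. Pim2, a kinase that stabilises MYC, read 803 in Satb1 against 676 in GFP, also 0.25 higher. Lower were the deubiquitinase genes Usp28 (328 in Satb1 against 381 in GFP) and Usp36 (725 in Satb1 against 801 in GFP), both known to spare MYC from degradation. The 2 other Usp36 probe sets above the floor were lower by more, with differences of -0.87 and -0.38.

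For the repressor side, 13 genes of the SIN3 corepressor were measured, all within 2-fold, where 1.13% of all genes were apart. By any amount, 8 were higher and 5 lower, against 45.2% and 54.8% of all genes, with a median of 0.03. Rbbp7 and Sap30, which encode a histone-binding and a bridging subunit, read 19377 in Satb1 against 16481 in GFP and 5350 in Satb1 against 4640 in GFP. This Rbbp7 probe set (name ending _x_at) may also match other transcripts, and the other was 0.08 higher. Brms1 (397 in Satb1 against 440 in GFP) and Arid4b (1226 in Satb1 against 1349 in GFP) were lower by 0.15 or less, and Arid4b had probe sets in both directions. By brightest probe sets, the Polycomb partners of MGA all lay between -0.12 and 0.15, over 9 measured genes with a median of 0.00. The highest were E2f6 (1770 in Satb1 against 1597 in GFP) and Ring1 (272 in Satb1 against 246 in GFP). The lowest were Yaf2 (3336 in Satb1 against 3621 in GFP) and L3mbtl2 (362 in Satb1 against 387 in GFP). The other E2f6 probe set was 0.24 higher, and another Yaf2 probe set was 0.09 higher.

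**Figure D4:**
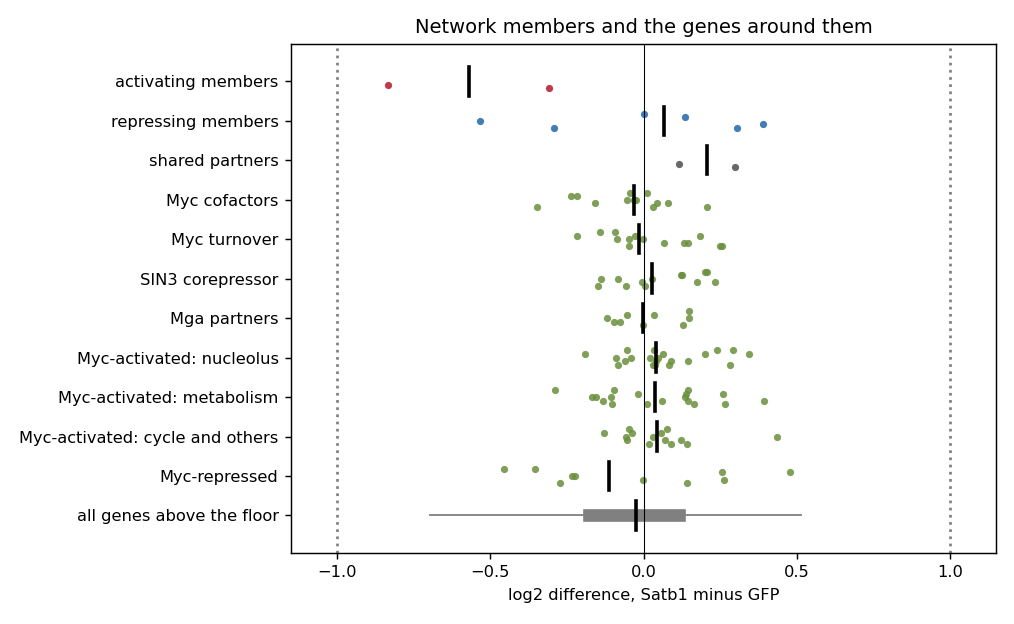
Log2 difference, Satb1 minus GFP, of each gene above the floor in the lists by role, with the list's median as a black bar and dotted lines at 2-fold. The bottom row gives all 11048 genes above the floor, with the middle 50% as a thick and the middle 95% (from -0.70 to 0.51) as a thin line. Both activating members lie left of 0, the repressing members lie between -0.53 and 0.39, and the genes of the cofactor, partner and target lists (green) lie between -0.46 and 0.48.

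Genes known to be activated by MYC stayed close to level. Of 53 measured targets, 34 were higher and 19 lower on the array labelled Satb1 by any amount, against 45.2% higher and 54.8% lower over all genes. None was apart by 2-fold or by 1.5-fold, against 1.13% and 5.66% of all genes, and the median log2 difference was 0.04, against -0.02. Many of these targets read above 2000, where the yardstick SD was 0.13, against 0.36 under 200. The shares of all genes include dim genes and are not matched to the targets' intensity. In the nucleolar list, 15 of 21 genes were higher. Its extremes were Pa2g4, a growth regulator of the nucleolus, at 9459 on the array labelled Satb1 against 7458 on the array labelled GFP, and Nop58, a core protein of box C/D particles, at 6907 in Satb1 against 5652 in GFP. Its lowest were Nop56, a partner of Nop58, at 8743 in Satb1 against 9982 in GFP and Gnl3, the nucleostemin gene, at 7015 in Satb1 against 7464 in GFP. Of the 4 other Pa2g4 probe sets, 3 went the other way, and so did the other Nop56 probe set, at 0.07. The brightest Nop56 probe set (name ending _s_at) may also match other transcripts.

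Among the metabolic targets, 10 of 18 genes were higher by any amount, against 45.2% of all genes. Cad, the enzyme that starts pyrimidine synthesis, read 2283 on the array labelled Satb1 against 1742 on the array labelled GFP, a log2 difference of 0.39, although its other probe set above the floor differed by 0.06. Odc1, the first enzyme of polyamine synthesis and a classic MYC target, read 9833 in Satb1 against 8175 in GFP, with all 3 of its probe sets higher. Nme1, a nucleoside diphosphate kinase gene, read 8619 in Satb1 against 10527 in GFP, and Slc7a5, a leucine transporter gene, 3769 in Satb1 against 4233 in GFP. The brightest probe sets of Nme1 and Odc1 (names ending _x_at) and of Cad (_s_at) may also match other genes. The other Nme1 probe set differed by 0.02.

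Among the cell cycle and other targets, 9 of 14 were higher by any amount, against 45.2% of all genes. Cdc25a, the phosphatase that opens S phase, read 2338 on the array labelled Satb1 against 1732 on the array labelled GFP. By brightest probe sets, this difference of 0.43 was the largest among the MYC-activated genes. Its other probe set above the floor differed by 0.12. Mcm4, a helicase subunit, read 8200 in Satb1 against 7441 in GFP, a difference of 0.14, and its other probe set differed by 0.51. The telomerase gene Tert (121 in Satb1 against 132 in GFP) and the Ran exchange factor gene Rcc1 (1515 in Satb1 against 1576 in GFP) were slightly lower.

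Of 12 genes known to be repressed by MYC, 10 were above the floor, 4 higher and 6 lower, against 45.2% and 54.8% of all genes. Their median log2 difference was -0.11. This median came to -0.00 with a lower floor, at the 25th percentile, and turned to 0.09 with probe sets averaged within a gene. Gadd45a, a DNA damage response gene, read 608 on the array labelled Satb1 against 437 on the array labelled GFP, and Ndrg2, a differentiation gene, 436 in Satb1 against 364 in GFP. Btg2, an antiproliferative gene, read 1046 in Satb1 against 1435 in GFP, a difference of -0.46, while its other probe set differed by -0.08. Gadd45b read 290.2 in Satb1 against 371 in GFP. The related Gadd45 genes thus went opposite ways, by 0.48 and -0.35 on the log2 scale.

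The E-box was then set against the differences. Of the 45 MYC-activated genes with a promoter window, 11 (24.4%) held CACGTG in at least 1, against 12.0% of all genes above the floor. Over the 9024 genes above the floor with a window, the 1085 with CACGTG had a median log2 difference of -0.02 and the 7939 without it also -0.02. By any amount, 44.9% of the first and 45.2% of the second were higher on the array labelled Satb1. Of the members with the E-box, Max and Mlx were higher, Mnt was level and Mxd4 was lower. A second motif, GGCGGGAA read on either strand as GGCGGGAA or TTCCCGCC, resembles the site of E2F factors, of which E2F6 is a partner of MGA. It was in 2.19% of all windows and in at least 1 window of 4.90% of the 9024 genes. Among the 9 members with a window it was in that of Mxd3, 137 bases before the start. The 442 genes above the floor with this motif had a median log2 difference of -0.02, and the 8582 without it also -0.02.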

How the data were processed

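RNA of 2 samples, 1 labelled Satb1 and 1 labelled GFP, was measured on Affymetrix arrays. The deposited values are MAS5 intensities on a linear scale, and the authors used MAS5 per the submitters' processing notes. The version, scaling target and genome build are not stated there. Both arrays had a mean of 497 once 2% of probe sets was trimmed at each end. Of 45037 probe sets, 34945 had 1 gene symbol, 932 several and 9160 none, and 34741 of the 34945 were matched to a current symbol by Entrez ID. Values were used as deposited, with the floor, the brightest probe set per gene and the 2-fold threshold given above. There is no read depth in array data, and precision is limited by the number of arrays.

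Each list was described by counts and its median, beside all genes. Genes named were all members, Mycl, Mlxip and Mlxipl, and in each list the 2 highest and 2 lowest genes above the floor on both arrays with any gene 2-fold apart. Others (Satb1, cell markers, Pklr) were named for a check or a count. The members and lists were chosen with earlier results of these data known. Alternatives covered the floor, normalization, probe set rule and threshold. Scripts (Python 3.11.15, pandas 2.3.3) were tested on simulated data.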

Additional observations from a re-analysis of the deposited data

How the results depend on the processing

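No paired analysis was possible because each group had 1 array, and for the same reason no array could be left out. The members' median log2 difference stayed between 0.00 and 0.09 and the gap between repressing and activating members between 0.42 and 0.68 in the 7 planned settings. The count of members apart was 0 in all settings but a threshold of 1.5-fold, which gave 1. Counting Mycl as activating, chosen after seeing the data, gave a gap of 0.38. The 12 genes Mycl, Mlxip and the 10 members were recomputed in 84 combinations of gene and setting, of which 7 moved by more than the spread between probe sets. With the mean over probe sets, the log2 difference came to -0.39 for Mycn, 0.02 for Mxd1, 0.31 for Mlx and 0.12, with a changed sign, for Mga. With the floor at the 75th percentile it came to 0 for Mxd1 and Mycl and to 0.03 for Mxd3, because those values lie near or under that floor. Quantile normalization left the sign of every member as it was, with -0.81 for Mycn and -0.37 for Myc. Medians near 0 changed sign in some settings, with ranges of -0.03 to 0.01 for the turnover list, -0.01 to 0.02 for the Mga partners and -0.01 to 0.06 for the metabolic targets, while that of all MYC-activated genes stayed between 0.03 and 0.06. The median of the MYC-repressed genes was 0.02 with no floor and 0.09 with the mean over probe sets.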
